A study of Mus musculus with 12 samples.

Results

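A set of 10 inflammatory cytokine genes was followed in mouse lung after irradiation: Il6, Lif, Osm, Tnf, Il1a, Il1rn, Il12b, Il10, Csf2 and Csf3. They were taken by gene symbol from the deposited count tables, where all 10 were found among 23238 symbols. Bulk RNA sequencing was done on 12 libraries in 4 groups of 3, namely lung without irradiation (labelled NoIR) and irradiated lung collected 8, 11 or 14 d after irradiation (labelled IR_8d, IR_11d and IR_14d). Per the series' design text, the irradiated samples were cut only from lung areas that had been exposed. The labels give no dose, strain, age, sex or treatment shared by the groups, and do not say which region the unirradiated samples came from. They number the replicates without saying that these are separate animals, so the p-values below measure the spread between these libraries, which may be technical.

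These genes encode secreted signals that cells use to start, amplify or restrain inflammation. IL-6, LIF and OSM form a family that signals through the shared receptor chain gp130 (Il6st) to the transcription factor STAT3. TNF and IL-1α act through receptors that activate the transcription factor NF-κB, and IL-1 receptor antagonist (Il1rn) blocks the IL-1 receptor. IL-12 p40 (Il12b) is the subunit shared by IL-12 and IL-23, IL-10 restrains inflammatory macrophages, and GM-CSF (Csf2) and G-CSF (Csf3) act on myeloid cells. In lung, GM-CSF is known for maintaining alveolar macrophages, and IL-6, TNF and IL-1 are known as early signals of tissue injury.

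In GENCODE M21 on mm10, 5 of the 10 genes lie on chromosome 11. Osm (chr11:4236420-4241026) and Lif (chr11:4257557-4272514) are neighbours there, separated by 16530 bases and both on the plus strand. Il12b (chr11:44400063-44414033, plus), Csf2 (chr11:54247271-54249667, minus) and Csf3 (chr11:98701263-98703629, plus) lie further along the same chromosome. Il6 is at chr5:30013114-30019981 (plus), Tnf at chr17:35199381-35202007 (minus) and Il10 at chr1:131019845-131024974 (plus). Il1rn (chr2:24336853-24351494, plus) and Il1a (chr2:129299610-129309972, minus) share chromosome 2. Exons of Il1a share 222 bases with the antisense gene Gm14023, and exons of Csf2 share 96 bases with the antisense gene Gm12223. The strand setting of the counting is not given in the sources used here, so reads of each pair may not have been told apart.

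Promoter sequences from RefSeq (GRCm38.p6) were matched by symbol for 7 of the 10 genes, and those of Osm, Csf3 and Il10 were not analysed here. The 250 bases before the start were searched on both strands for 4 motifs: the NF-κB (κB) consensus, the AP-1 site TGANTCA, the STAT site TTCNNNGAA and the TATA box TATAAA. Il6 and Lif, the genes that were highest at 8 d, are shown because their windows held both a κB and an AP-1 match, a combination present in 0.356% of 32851 promoter windows. Il1a, Il1rn and Tnf are shown for comparison, with the AP-1 or TATA matches found there. Capitals mark the matches, and each window is written 5′ to 3′ on the strand of its gene.
Il6: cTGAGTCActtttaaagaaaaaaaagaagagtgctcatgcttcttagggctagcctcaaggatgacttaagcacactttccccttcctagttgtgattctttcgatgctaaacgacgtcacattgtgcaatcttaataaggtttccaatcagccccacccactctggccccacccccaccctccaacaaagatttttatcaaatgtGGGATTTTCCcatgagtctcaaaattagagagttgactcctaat
Lif: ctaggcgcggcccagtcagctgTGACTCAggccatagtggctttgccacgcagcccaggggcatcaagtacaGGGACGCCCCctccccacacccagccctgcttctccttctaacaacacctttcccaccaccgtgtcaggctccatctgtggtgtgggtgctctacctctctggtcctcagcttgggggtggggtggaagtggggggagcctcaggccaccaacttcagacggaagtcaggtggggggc
Il1a: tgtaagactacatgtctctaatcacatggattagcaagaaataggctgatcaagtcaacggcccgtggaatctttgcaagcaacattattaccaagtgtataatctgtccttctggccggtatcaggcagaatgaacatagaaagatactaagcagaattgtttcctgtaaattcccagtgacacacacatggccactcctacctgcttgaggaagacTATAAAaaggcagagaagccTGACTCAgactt
Il1rn: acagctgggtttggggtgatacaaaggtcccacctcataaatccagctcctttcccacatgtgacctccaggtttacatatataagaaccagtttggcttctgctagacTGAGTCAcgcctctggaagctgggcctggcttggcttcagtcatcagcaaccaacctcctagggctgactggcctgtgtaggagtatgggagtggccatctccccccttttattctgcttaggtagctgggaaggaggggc
Tnf: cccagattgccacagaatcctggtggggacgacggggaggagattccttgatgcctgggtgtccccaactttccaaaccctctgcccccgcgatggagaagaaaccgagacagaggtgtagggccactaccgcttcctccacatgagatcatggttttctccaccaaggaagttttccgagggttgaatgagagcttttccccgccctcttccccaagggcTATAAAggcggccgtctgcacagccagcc

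The Il6 window (chr5:30012864-30013113 on the plus strand) held its κB match 44 to 35 bases before the start and its AP-1 match 249 to 243 bases before it. The Lif window (chr11:4257318-4257567 on the plus strand) held a κB match 178 to 169 and an AP-1 match 228 to 222 bases before the start. In Il1a (chr2:129309973-129310222 on the minus strand) an AP-1 match lay 12 to 6 and a TATA match 32 to 27 bases before the start. The first of 3 Il1rn windows (chr2:24336610-24336859 on the plus strand) held an AP-1 match 141 to 135 bases before the start, and the other two held no match. The Tnf window (chr17:35202008-35202257 on the minus strand) held a TATA match 29 to 24 bases before the start. No match was found in the windows of Il12b and Csf2, and no window of the 7 genes held TTCNNNGAA. The Csf2 window (chr11:54249900-54250149 on the minus strand) belongs to a RefSeq start upstream of the GENCODE start at 54249667. The bases just before that GENCODE start were therefore not searched. Over all promoters, 7.25% held a κB match, 6.75% an AP-1 match, 7.02% a STAT match and 12.4% a TATA match. These matches describe letters only, and nothing was measured of factor binding.

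Levels are given as counts, or as CPM, the library-scaled count, on library sizes adjusted by the trimmed mean of M-values (TMM). A gene is called changed where edgeR's quasi-likelihood test gave a Benjamini-Hochberg adjusted p below 0.05 over the 16484 genes tested, and log2 changes are followed by their standard error (SE). Library totals were 26164354 to 27765751 counts in unirradiated lung and 19624554 to 25524425 in irradiated lung, so 3 counts corresponded to between 0.108 and 0.156 CPM. The 9 lung identity markers were detected in every group and summed to 46936 to 62648 CPM in unirradiated lung and to 35154 to 39012, 23853 to 35670 and 22176 to 25488 CPM at 8, 11 and 14 d, with 3, 6 and 7 of 9 called lower and 1, Col1a1, higher at each time. The part of this shift in the cytokine changes was not tested. Over all genes tested, 10.6%, 17.8% and 18.9% were called lower and 13%, 19.4% and 20% higher at these times. On the first principal component, 11 d replicate 1 (43.35) lay among the 14 d libraries (28.23 to 44.65) and apart from the other 11 d libraries (17.77 and 19.34). In bulk tissue, a change in the number of cells of a type and a change in RNA per cell cannot be told apart.

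Few counts limit several of the genes. Csf3 (0 to 4 counts per library) and Il10 (0 to 11) did not pass the filter on low counts and were not tested. Il6 and Osm passed it through the irradiated groups alone, because every unirradiated library held fewer than 10 counts of each, and Tnf held fewer than 10 in 1 of the 3. Of the 10 genes, 6 were called higher at 8 d, 7 at 11 d and 7 at 14 d, and none was called lower. Across all genes tested, 23.6%, 37.2% and 38.9% were called in either direction at those times, and 13%, 19.4% and 20% were called higher. The median log2 change of the 8 genes tested was 2.43, 3.01 and 2.19, against medians of 0.01, −0.01 and 0.01 over all genes tested. No support is drawn from these counts and medians, since Il6 and Osm had to be high after irradiation to be tested at all. The 3 comparisons share the same 3 unirradiated libraries.

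Between irradiated groups, 4 of the 10 genes were called higher at 11 d than at 8 d, 2 were called lower at 14 d than at 11 d, and from 8 to 14 d 1 was called higher and 2 lower. Across all genes tested, 1.75% were called higher from 8 to 11 d and 0.983% lower from 11 to 14 d, and from 8 to 14 d 8.1% were called higher and 7.29% lower. All 3 irradiated libraries lay above all 3 unirradiated ones for 6, 8 and 7 of the 8 tested genes at 8, 11 and 14 d, against 19.8%, 28.2% and 25.8% of all genes tested. Il6 and Osm, which passed the filter through the irradiated groups alone, are among them at each time. No support is drawn from these counts for that reason. The 8 and 11 d libraries did not overlap for 4 genes that were higher (9.57% of all genes) and 2 that were lower at 11 d (8.72%). From 11 to 14 d 4 genes were lower without overlap (11.7%), and from 8 to 14 d 1 gene was higher (15.1%) and 2 were lower (14.9%).

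**Figure D1:**
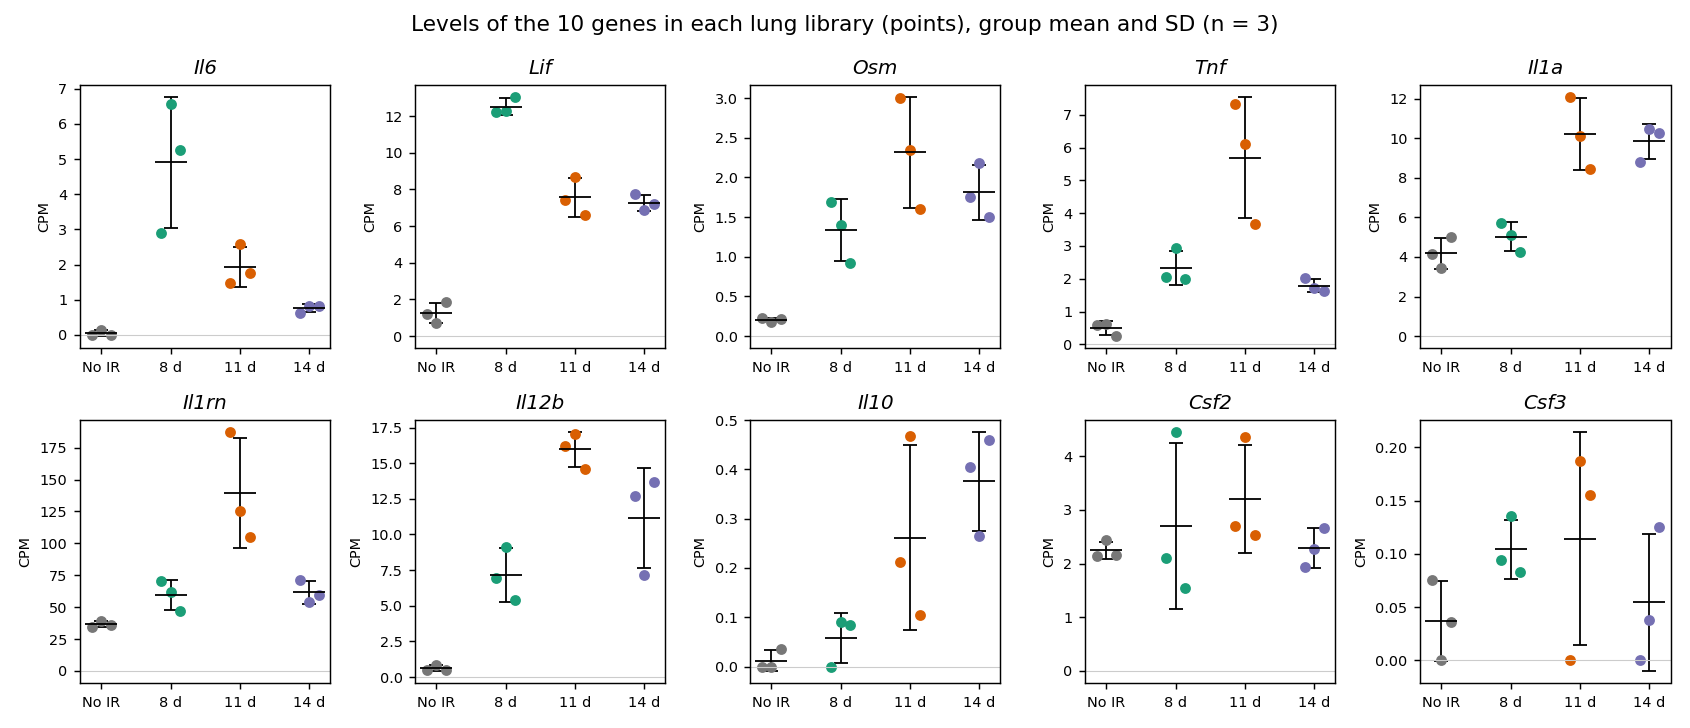
Each panel plots 1 of the 10 genes, with CPM on the vertical axis, the 4 groups on the horizontal axis, 1 point per library and the group mean with its SD (n = 3). Il6 and Lif were highest at 8 d, Tnf, Il1rn and Il12b at 11 d, and Il10 and Csf3 stayed below 0.5 CPM in every library.

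Il6 went from almost no reads to its highest level at 8 d and then declined. Unirradiated replicates 1 to 3 held 0, 4 and 0 counts. The 8 d libraries held 62, 146 and 126 counts, the 11 d libraries 35, 55 and 34, and the 14 d libraries 14, 22 and 20. No irradiated group overlapped the unirradiated group, and the 3 irradiated groups did not overlap each other. Mean levels were 0.0492 ± 0.0852 CPM (SD, n = 3) in unirradiated lung and 4.91 ± 1.86, 1.94 ± 0.570 and 0.765 ± 0.117 CPM at 8, 11 and 14 d. The log2 change was 6.50 (SE 0.63, edgeR adjusted p = 9.87e-06) at 8 d, 5.16 (SE 0.66, 3.92e-05) at 11 d and 3.83 (SE 0.73, 0.000726) at 14 d. The size of these changes rests on 4 control counts, all in unirradiated replicate 2. Without that library the controls held 0 counts. Against an assumed floor of 3 counts over the remaining control libraries, Il6 was 89.4-fold higher at 8 d, 34.9-fold at 11 d and 13.9-fold at 14 d. The fitted log2 changes without that library rose to 9.86, 8.51 and 7.18. None of these values is a lower bound. With all libraries, summed and scaled for their sizes, the ratio was 100.5 at 8 d (95% exact interval 38.9 to 371). It was 39.2 at 11 d (14.9 to 146) and 15.7 at 14 d (5.79 to 59.5), and these intervals cover counting error only.

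Between irradiated groups, Il6 was 6.37-fold lower at 14 d than at 8 d (log2 change −2.67, SE 0.43, edgeR adjusted p = 0.000965), where 15.4% of all genes tested were called. The steps between neighbouring times were not called by edgeR, with log2 changes of −1.34 (SE 0.40, adjusted p = 0.102) from 8 to 11 d and −1.33 (SE 0.45, 0.153) from 11 to 14 d. DESeq2 called both steps, with adjusted p = 0.0123 and 0.0357. The highest Il6 count, in 8 d replicate 2, came from the library with the highest summed level of neutrophil markers (210 CPM, against 64.2 and 59.8 CPM in the other 8 d libraries), and whether these are related was not tested. Without that library the 8 d change was 6.23 (adjusted p = 2.6e-05) and the change from 8 to 14 d was −2.41 (0.00339).

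Lif, which encodes leukemia inhibitory factor, was also highest at 8 d and stayed high afterwards. Its level was 1.21, 0.738 and 1.84 CPM in unirradiated replicates 1 to 3 and 12.2, 12.3 and 13 CPM at 8 d. At 11 d it was 7.44, 8.67 and 6.58 CPM, and at 14 d 7.74, 6.90 and 7.18 CPM. All 9 irradiated libraries lay above all unirradiated ones, the 8 d libraries lay above the later ones, and the 11 d and 14 d libraries overlapped. Lif was 9.86-fold higher at 8 d (log2 change 3.30, SE 0.25, edgeR adjusted p = 1.76e-06), 5.97-fold at 11 d (2.58, SE 0.25, 4.05e-06) and 5.73-fold at 14 d (2.52, SE 0.25, 2.41e-06). The decrease from 8 to 14 d was called at a log2 change of −0.78 (SE 0.21, adjusted p = 0.0233). That call was lost on leaving out 8 d replicate 3 (0.0777), 14 d replicate 1 (0.0632), 14 d replicate 2 (0.0703) or 14 d replicate 3 (0.0567). The decrease from 8 to 11 d of a like size (−0.72, SE 0.21) had an edgeR adjusted p of 0.101 and a DESeq2 adjusted p of 0.0139.

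Osm encodes oncostatin M, the third member of that family measured here, and was lowest in unirradiated lung. Osm counts were 6, 5 and 6 in unirradiated lung, 36, 31 and 22 at 8 d, 71, 50 and 31 at 11 d and 39, 58 and 36 at 14 d. Every irradiated library lay above every unirradiated one, while the irradiated groups overlapped each other. The mean rose from 0.209 ± 0.0218 CPM (SD, n = 3) to 1.33 ± 0.389, 2.32 ± 0.697 and 1.81 ± 0.347 CPM at 8, 11 and 14 d. The log2 changes were 2.64 (SE 0.39, edgeR adjusted p = 0.000282), 3.44 (SE 0.38, 1.19e-05) and 3.09 (SE 0.38, 1.89e-05). None of the 3 comparisons between irradiated groups was called for Osm, and the largest difference, 0.81 from 8 to 11 d, had an SE of 0.31 and an adjusted p of 0.218.

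The receptor chains of this family moved in different directions. Lifr, the LIF receptor chain, fell at all 3 times from 153 CPM to 76.6, 65.1 and 74.4 CPM, with log2 changes of −1.0, −1.23 and −1.04 (SE 0.15 each, edgeR adjusted p between 2.94e-05 and 0.000331). Osmr, the chain specific to oncostatin M, rose at all 3 times, by 0.66, 0.86 and 0.71 (SE 0.14 each, adjusted p at most 0.00325). Il6st, which encodes gp130, fell at 11 d (−0.66, adjusted p = 0.0128) and 14 d (−0.73, 0.00631) and had a log2 change of −0.41 at 8 d (0.135). Il6ra, the IL-6 binding chain, fell at 8 d (−0.89, SE 0.20, adjusted p = 0.00495), when Il6 was highest, and was called higher at 14 d than at 8 d by 1.04 (0.00279).

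Tnf was highest at 11 d. Unirradiated libraries held 16, 17 and 7 counts (0.603, 0.627 and 0.253 CPM), and the 8 d libraries 44, 65 and 48 (2.06, 2.93 and 2.0 CPM). The 11 d libraries held 173, 130 and 71 counts (7.31, 6.09 and 3.68 CPM) and the 14 d libraries 45, 46 and 39 (2.02, 1.73 and 1.63 CPM). The 11 d libraries lay above all others, and the 8 d and 14 d libraries overlapped above the unirradiated ones. Tnf was 4.68-fold higher than without irradiation at 8 d (log2 change 2.23, SE 0.36, edgeR adjusted p = 0.000516), 11.5-fold at 11 d (3.52, SE 0.35, 5.63e-06) and 3.61-fold at 14 d (1.85, SE 0.36, 0.000942). Without 11 d replicate 1, which held the highest Tnf level, the 11 d change was 3.30 (3.24e-05).

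The rise of Tnf from 8 to 11 d was called with a log2 change of 1.29 (SE 0.30, edgeR adjusted p = 0.0429), in a comparison where 2.14% of all genes tested were called. The call was lost on leaving out 8 d replicate 1 (0.12), 8 d replicate 3 (0.202), 11 d replicate 1 (0.258) or 11 d replicate 2 (0.101), with scaling by library size alone (0.057), and in a fit of the 8 and 11 d groups alone (0.0619). The fall from 11 to 14 d was called at −1.67 (SE 0.31, 0.0168), a 3.18-fold decrease, where 1.8% of all genes were called. This call was lost without 11 d replicate 2 (0.102), 14 d replicate 1 (0.0904) or 14 d replicate 2 (0.0667), while the change itself stayed between −1.90 and −1.45 on leaving out each library in turn. Both contrasts use the same 11 d libraries.

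Of the TNF receptors, Tnfrsf1b was called higher at all 3 times and Tnfrsf1a at none. Tnfrsf1b, the receptor found mainly on immune and endothelial cells, had a mean of 39.6 CPM without irradiation and 78.3, 131 and 198 CPM at 8, 11 and 14 d, with log2 changes of 0.98, 1.73 and 2.32 (edgeR adjusted p at most 0.00863). Tnfrsf1a, the widely expressed receptor, had log2 changes of 0.31, 0.09 and −0.04 (adjusted p = 0.0682, 0.551 and 0.811). Adam17, the protease that releases TNF from the cell surface, rose at 11 d (0.93, SE 0.14, 0.000124) and 14 d (1.14, SE 0.14, 1.46e-05). Rhbdf2, which brings ADAM17 to the surface, was called higher at all 3 times, by 0.88, 0.69 and 0.76.

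**Figure D2:**
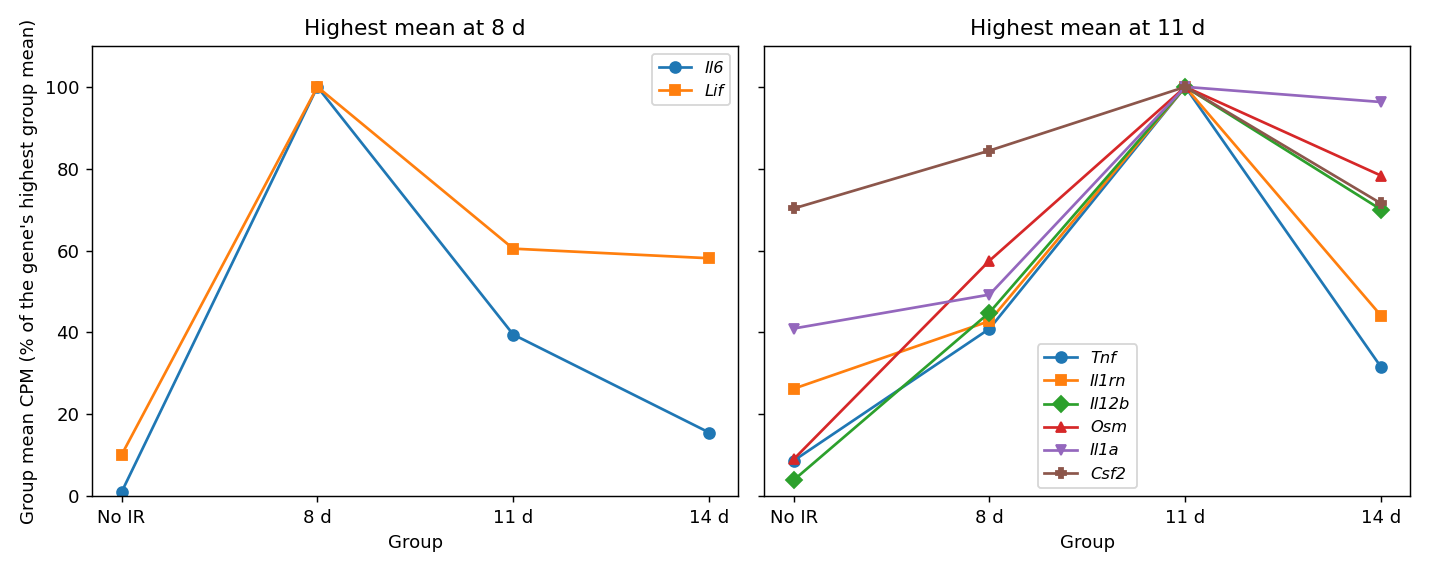
Lines join the group means of 8 genes, in percent of each gene's highest group mean, over the 4 groups; Il6 and Lif stand on the left and the 6 genes with their highest mean at 11 d on the right. At 14 d Il6 was at 15.6% and Tnf at 31.5% of their highest mean, while Il1a remained at 96.3%.

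Il1a and Il1rn encode an agonist and the antagonist of the same receptor. Il1a encodes IL-1α, which can act from the surface of its cell or be released from dying cells. Its level was 4.14, 3.43 and 4.99 CPM in unirradiated lung and 5.72, 5.13 and 4.25 CPM at 8 d, so these groups overlapped. It was 12.1, 10.1 and 8.45 CPM at 11 d and 8.81, 10.4 and 10.3 CPM at 14 d, and all 6 later libraries lay above all earlier ones. The log2 change was 0.26 (SE 0.19, edgeR adjusted p = 0.367) at 8 d, 1.29 (SE 0.19, 0.000141) at 11 d and 1.23 (SE 0.19, 0.00014) at 14 d. Il1a was called higher at 14 d than at 8 d by 0.97 (SE 0.19, 0.00339), with an adjusted p of at most 0.0238 on leaving out each library in turn. The rise from 8 to 11 d was called at 1.02 (SE 0.19, 0.0177), and that call was lost without 8 d replicate 3 (0.123) or 11 d replicate 1 (0.102).

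The antisense gene Gm14023 summed to 278 counts in unirradiated lung and 202, 302 and 334 counts at 8, 11 and 14 d, beside 341, 338, 665 and 719 counts of Il1a. The part of shared reads in either gene was not tested.

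Il1rn held the most counts of the 10 genes in every library and was highest at 11 d. Unirradiated libraries held 34.7, 39.1 and 36.0 CPM and the 8 d libraries 70.5, 61.6 and 46.9 CPM. The 11 d libraries held 188, 126 and 105 CPM and the 14 d libraries 71.0, 53.6 and 59.8 CPM. All irradiated libraries lay above the unirradiated ones, the 11 d libraries lay above all others, and the 8 d and 14 d libraries overlapped. The increase was 1.63-fold at 8 d (log2 change 0.70, SE 0.20, edgeR adjusted p = 0.0207), 3.81-fold at 11 d (1.93, SE 0.21, 8.93e-06) and 1.68-fold at 14 d (0.75, SE 0.20, 0.00866). The 8 d call was lost without 8 d replicate 1 (0.0762), unirradiated replicate 1 (0.0767) or unirradiated replicate 3 (0.0562). Without 11 d replicate 1 the 11 d change was 1.66 (2.15e-05).

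Between irradiated groups Il1rn rose by 1.23 on the log2 scale from 8 to 11 d (SE 0.20, edgeR adjusted p = 0.0112), a call lost only without 8 d replicate 3 (0.0926) among the 6 libraries left out in turn. It fell by 1.18 from 11 to 14 d (SE 0.20, 0.0127), a call lost without 11 d replicate 2 (0.0639), 14 d replicate 1 (0.0562) or 14 d replicate 2 (0.0532). Its 8 and 14 d means were 59.7 and 61.5 CPM, a log2 difference of 0.04 (SE 0.20, 0.921).

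The count of Il1rn per count of Il1a in the same library needs no scaling. It was 8.38, 11.4 and 7.22 in unirradiated lung, 12.3, 12 and 11.0 at 8 d, 15.5, 12.4 and 12.4 at 11 d, and 8.05, 5.13 and 5.83 at 14 d. The 11 d libraries lay above the unirradiated ones, and the 14 d libraries lay below the 8 and 11 d ones. Against unirradiated lung the mean log2 ratio differed by 0.41 at 8 d, 0.60 at 11 d and −0.50 at 14 d, with p = 0.2, 0.1 and 0.2 in an exact two-sided permutation test. With 3 libraries against 3 this test cannot go below 0.1, so none of the 3 differences could pass a threshold of 0.05.

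**Figure D3:**
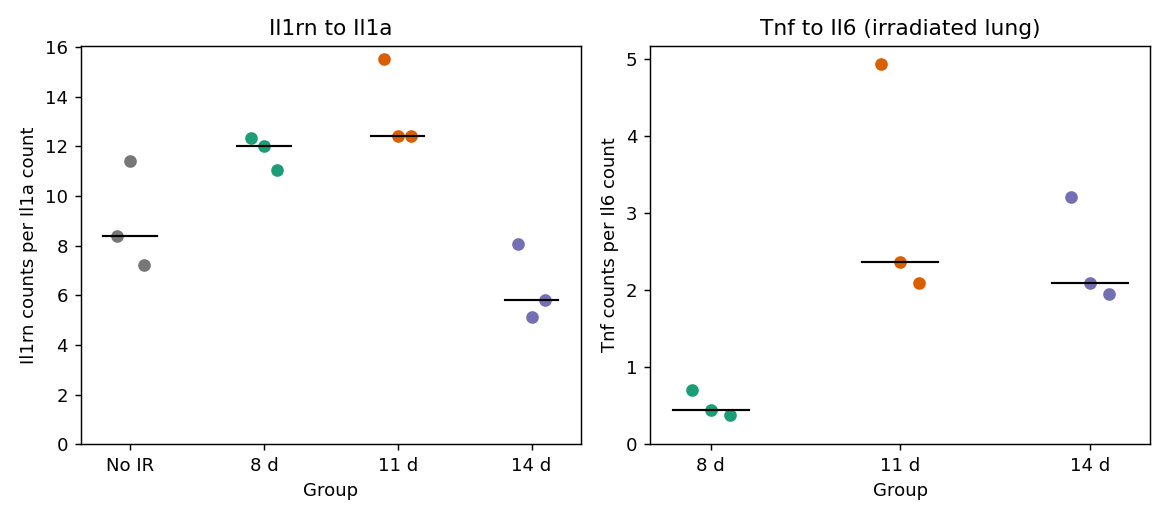
Points are libraries and lines are group medians of the count ratio of Il1rn to Il1a (left, 4 groups) and of Tnf to Il6 (right, irradiated groups). The Il1rn to Il1a ratio was 11.0 to 15.5 at 8 and 11 d and 5.13 to 8.05 at 14 d, and the Tnf to Il6 ratio was 0.381 to 0.710 at 8 d and 1.95 to 4.94 later.

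The count ratio of Tnf to Il6, chosen after the values were seen and given as a description, was 0.710, 0.445 and 0.381 at 8 d. It was 4.94, 2.36 and 2.09 at 11 d and 3.21, 2.09 and 1.95 at 14 d. Il6 counts exceeded Tnf counts in every 8 d library, and Tnf counts exceeded Il6 counts in every later library.

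Among the IL-1 receptor chains, the decoy rose and the signalling chains were not called. Il1r2, which binds IL-1 without signalling, went from 1.2 CPM to 5.6, 11.0 and 5.19 CPM at 8, 11 and 14 d, with log2 changes of 2.21, 3.18 and 2.10 (SE 0.46 each, edgeR adjusted p at most 0.00318). Il1r1, the signalling receptor, had log2 changes of 0.04, 0.15 and 0.14 and Il1rap, its accessory chain, −0.23, 0.05 and −0.21, with adjusted p of 0.326 or more. Il1b, the other IL-1 agonist, was named after its values were seen. It was called higher at 8 d (3.09, SE 0.54, 0.000911) and 11 d (2.42, SE 0.53, 0.00269) and not at 14 d (1.23, SE 0.53, 0.0807), the time when Il1a stood at 9.84 CPM. Casp1, which encodes the protease that matures IL-1β and is not needed for IL-1α, rose by 0.77, 1.57 and 1.81. Of the calpain genes listed with it, Capn1 was not called, and Capn2 was called lower at 14 d (mean 375 CPM without irradiation, 262 CPM at 14 d). Of the 8 tested genes of partner subunits and release enzymes, 3, 5 and 5 were called higher and 0, 0 and 2 lower. Of all genes, 13%, 19.4% and 20% were called higher and 10.6%, 17.8% and 18.9% lower. Among these 8, Il27 passed the filter through the irradiated groups alone.

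Il12b had the lowest p of the 10 genes in the test of any difference among the 4 groups (edgeR joint adjusted p = 1.08e-06, a test that called 39.2% of all genes). Unirradiated libraries held 14, 23 and 14 counts (0.527, 0.849 and 0.506 CPM). Levels were 6.98, 9.14 and 5.38 CPM at 8 d, 16.2, 17.1 and 14.6 CPM at 11 d and 12.7, 7.17 and 13.6 CPM at 14 d. All irradiated libraries lay above the unirradiated ones, all 11 d libraries lay above the 8 and 14 d ones, and 14 d replicate 2 lay within the 8 d range. The increase was 11.3-fold at 8 d (log2 change 3.50, SE 0.31, edgeR adjusted p = 5.36e-06), 25.3-fold at 11 d (4.66, SE 0.31, 3.27e-07) and 17.7-fold at 14 d (4.14, SE 0.31, 3.4e-07).

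The rise of Il12b from 8 to 11 d was called at 1.16 (SE 0.25, edgeR adjusted p = 0.0292). This call was lost without 8 d replicate 1 (0.0805), 8 d replicate 3 (0.172), 11 d replicate 1 (0.127) or 11 d replicate 2 (0.0751). From 11 to 14 d the log2 change of −0.52 (SE 0.24, 0.307) was not called. From 8 to 14 d it was 0.64 (SE 0.25, 0.0995), and it was called without 8 d replicate 2 (0.0393) or without 14 d replicate 2 (0.0184).

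The genes of the subunits that pair with p40 were low in all groups. Il12a, which encodes the p35 subunit of IL-12, had means of 1.53, 0.916, 0.863 and 0.412 CPM in unirradiated, 8, 11 and 14 d lung, and was called lower at 14 d (log2 change −1.88, SE 0.44, edgeR adjusted p = 0.0037). Il23a, which encodes the p19 subunit of IL-23, was not tested for few counts, with 4, 15, 11 and 44 counts summed over the 3 libraries of each group. Both subunits were named after their values were seen. Ebi3, the subunit of IL-27 related to p40, rose at all 3 times, by 1.79, 2.19 and 2.78 (SE at most 0.33, adjusted p at most 0.00127). The IL-12 receptor chains rose at all 3 times, Il12rb1 by 1.65, 2.21 and 2.08 and Il12rb2 by 1.19, 1.06 and 1.02, with adjusted p of at most 0.0177.

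Il10, which encodes the anti-inflammatory cytokine IL-10, was near the detection limit. Its counts were 0, 0 and 1 in unirradiated lung, 0, 2 and 2 at 8 d, 5, 10 and 2 at 11 d and 9, 7 and 11 at 14 d. All 14 d libraries lay above all unirradiated and 8 d libraries. Summed over libraries and scaled for their sizes, the ratio to unirradiated lung was 4.82 at 8 d (95% exact interval 0.477 to 237), 21.5 at 11 d (3.37 to 899) and 30.2 at 14 d (4.98 to 1236), each against 1 control count. These intervals cover counting error only. With no filter on low counts, edgeR gave adjusted p values of 0.398, 0.0126 and 0.00346 at 8, 11 and 14 d. Il10ra, the chain that binds IL-10, rose from 9.34 CPM to 31.9, 36.5 and 53.1 CPM, with log2 changes of 1.77, 1.97 and 2.51 (SE 0.17 each, adjusted p at most 8.9e-06). Il10rb, the chain it shares with other receptors, was not called against unirradiated lung.

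Csf2 was tested and not called in any comparison, and Csf3, like Il10, was not tested. Csf2 levels were 2.15, 2.44 and 2.17 CPM in unirradiated lung, 2.11, 4.46 and 1.54 CPM at 8 d, 2.70, 4.36 and 2.54 CPM at 11 d and 1.93, 2.26 and 2.67 CPM at 14 d. Replicate 2 was the highest library at 8 and at 11 d, and the 11 d libraries lay just above the unirradiated ones while the other groups overlapped them. The log2 changes were 0.26 (SE 0.34, edgeR adjusted p = 0.631), 0.51 (SE 0.34, 0.261) and 0.03 (SE 0.35, 0.962). The 8 d value turned to −0.31 without 8 d replicate 2, the library with the 210 CPM of neutrophil markers, and the 14 d value turned to −0.10 without 14 d replicate 3 and to −0.01 without unirradiated replicate 1. Csf3 counts were 2, 0 and 1 in unirradiated lung, 2, 3 and 2 at 8 d, 0, 4 and 3 at 11 d and 0, 1 and 3 at 14 d. The ratio of Csf3 to unirradiated lung, against 3 control counts, was 2.81 (95% exact interval 0.641 to 16.8), 2.95 (0.674 to 17.7) and 1.49 (0.252 to 10.2), so no difference was detectable at this depth.

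Receptor chains of these colony stimulating factors were called higher at 11 and 14 d, while Csf2 was not called and Csf3 was not tested. Csf2ra, the GM-CSF binding chain, had a log2 change of 0.37 at 8 d (SE 0.18, edgeR adjusted p = 0.159), 1.21 at 11 d (SE 0.18, 0.000132) and 2.01 at 14 d (SE 0.18, 1.43e-06), and it was called higher at each later time than at the one before. Csf2rb, the signalling chain, rose by 0.86, 1.89 and 2.17 (SE 0.21 to 0.22, adjusted p at most 0.0087). Csf3r, the G-CSF receptor of neutrophils and their precursors, rose by 1.09, 1.29 and 1.52 (SE 0.26 to 0.27, adjusted p at most 0.00839).

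**Figure D4:**
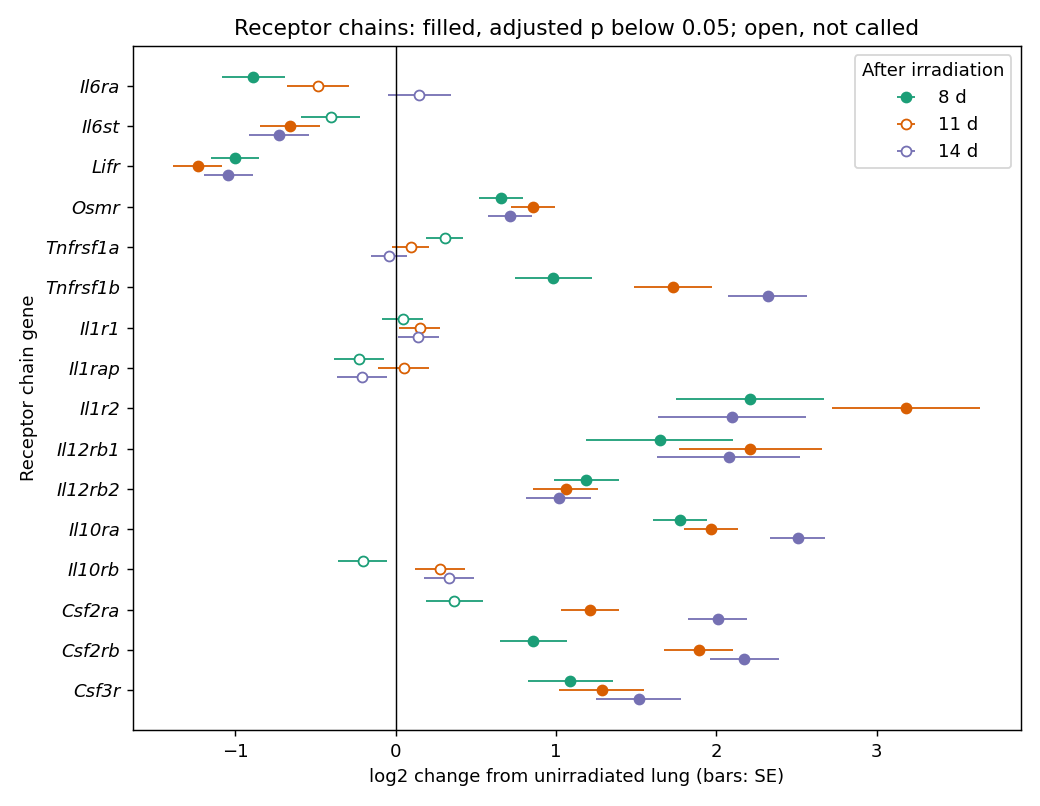
Points are log2 changes of 16 receptor chain genes from unirradiated lung at 8, 11 and 14 d (horizontal axis), bars are SE, and filled points passed an edgeR adjusted p of 0.05. Lifr lay near −1 at all 3 times, Il1r2 reached 3.18 at 11 d, and Tnfrsf1a, Il1r1, Il1rap and Il10rb have open points throughout.

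Counted together, 8 of the 16 receptor chains were called higher and 2 lower at 8 d, 9 higher and 2 lower at 11 d, and 9 higher and 2 lower at 14 d. Their median log2 change was 0.51, 0.96 and 0.86, against 0.01, −0.01 and 0.01 over all genes tested. Of all genes tested, 13%, 19.4% and 20% were called higher and 10.6%, 17.8% and 18.9% lower.

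The order of the genes in one tissue needs levels per length, here CPM per kilobase of merged exon. Without irradiation Il1rn (6.62 ± 0.407, SD, n = 3) was followed by Csf2 (2.81 ± 0.201) and Il1a (2.12 ± 0.394), and these 3 did not overlap their neighbours. Il12b, Tnf and Lif came next, at 0.319, 0.302 and 0.290 CPM per kilobase, and each overlapped the next. Osm (0.0920) and the 3 genes with the fewest counts, Csf3, Il6 and Il10, stood last. At 8 d Il1rn (10.8 ± 2.16) was followed by Il12b (3.64), Csf2 (3.38), Lif (2.88), Il1a (2.55) and Il6 (2.02), where each of these 5 overlapped the next, so their order is not resolved, and Il6 also overlapped Tnf (1.42). At 11 d Il1rn (25.2 ± 7.76) and Il12b (8.12 ± 0.631) stood apart above Il1a (5.18), Csf2 (4.0) and Tnf (3.48), which overlapped their neighbours in that order. At 14 d Il12b (5.68) and Il1a (4.99) overlapped below Il1rn (11.1), and Csf2 (2.86), Lif (1.67), Tnf (1.10) and Osm (0.799) followed without overlap.

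Levels were also set against Ptprc, which encodes the pan-leukocyte protein CD45 and spanned 91.3 to 140 CPM in unirradiated libraries. In 8 d libraries it spanned 262 to 293 CPM, in 11 d libraries 301 to 473 CPM and in 14 d libraries 404 to 505 CPM. Per 1000 Ptprc counts, Il6 had a median of 0 (range 0 to 1.62) in unirradiated lung and 20.0 (range 10.7 to 22.4) at 8 d. The Il6 median was 5.85 (range 3.13 to 8.02) at 11 d and 1.79 (range 1.25 to 2.06) at 14 d, where the lowest library lay inside the unirradiated range. Lif (10.1, 45.2, 21.9 and 15.4), Osm (1.89, 4.77, 6.34 and 3.47) and Il12b (4.4, 25.8, 48.6 and 25.2) were above the unirradiated range in every irradiated library. The remaining genes did not keep that order. Tnf was above the unirradiated range at 8 d (7.62 to 9.99) and 11 d (12.2 to 18.9), while its 14 d libraries (3.49 to 4.30) lay inside the unirradiated range of 1.80 to 6.87. Il1a per 1000 Ptprc counts was lower in every irradiated library than in every unirradiated one, with medians of 35.5, 17.5, 28.1 and 22, and so was Csf2, with medians of 17.9, 7.79, 8.44 and 5.61. Il1rn spanned 257 to 429 in unirradiated lung, with 179 to 261 at 8 d and 349 to 396 at 11 d overlapping that range and 128 to 141 at 14 d below it. Cells that lack CD45 may also express these genes, Il1rn and Il1a among them, so this ratio is no level per cell for any gene.

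**Figure D5:**
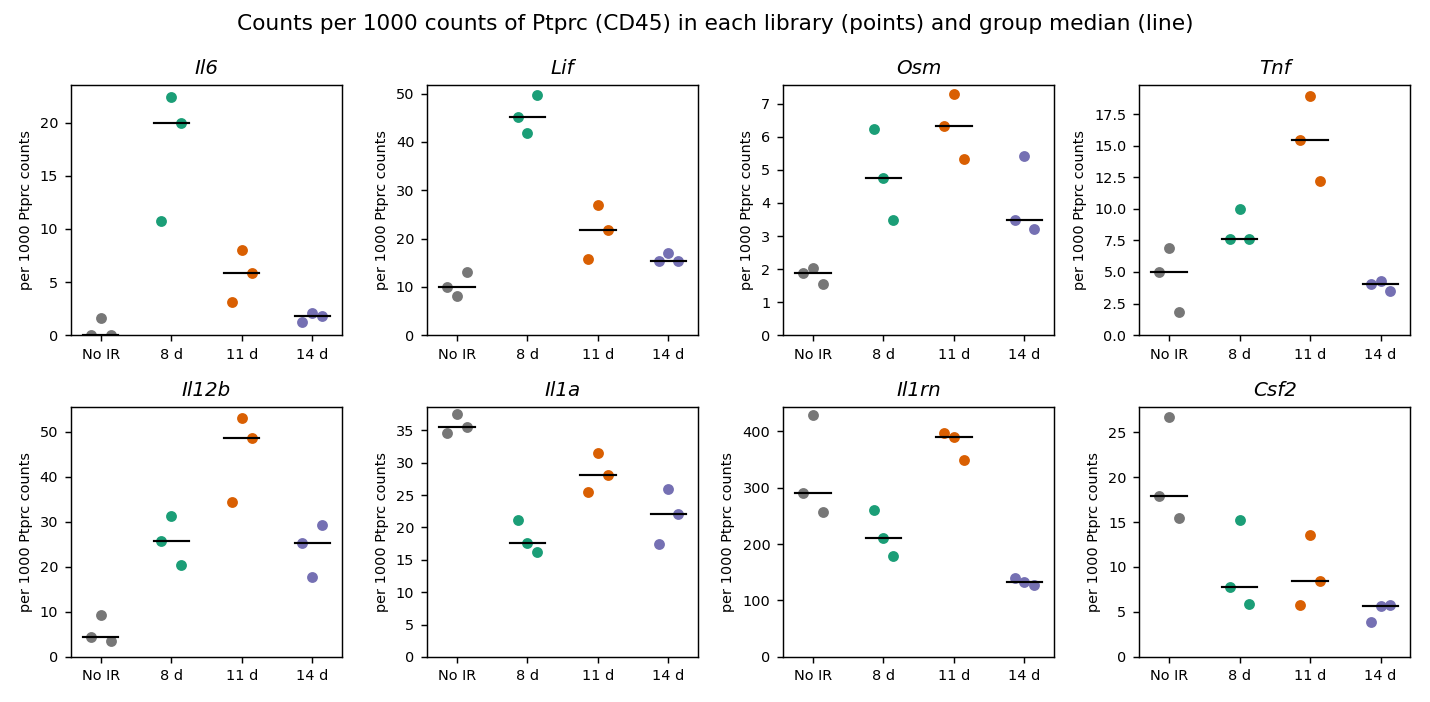
Each panel plots the counts of 1 gene per 1000 Ptprc counts, with 1 point per library and the group median as a line. All irradiated libraries lay above the unirradiated ones for Lif, Osm and Il12b and below them for Il1a and Csf2.

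Markers of cell types that make or answer these cytokines moved with the groups. The 12 macrophage and monocyte markers summed to 7828 to 8627 CPM in unirradiated lung and to 6504 to 7574, 9630 to 14706 and 18222 to 23333 CPM in the 8, 11 and 14 d libraries, and 7, 10 and 12 of 12 were called higher at the 3 times with 1, Mertk, called lower at 8 d. Lyz2 made up most of that sum in every group (means of 7916, 6340, 10348 and 18716 CPM). The other 11 markers summed to 316 to 343 CPM in unirradiated lung and to 516 to 702, 997 to 1763 and 1606 to 1817 CPM at the 3 times. The 8 neutrophil markers in the files summed to 24.4 to 70.7, 59.8 to 210, 83.9 to 123 and 54.7 to 79.7 CPM, with Mpo at 0 in the unirradiated group, and 2, 2 and 1 of the 5 tested were called higher. These were S100a9 and Mmp8 at 8 d, S100a8 and Mmp8 at 11 d and Mmp8 at 14 d. Mmp8 had means of 2.29, 11.5, 28.4 and 33.5 CPM, while S100a9 had 18.6, 57.9, 37.1 and 11.4 CPM. The 11 T and NK cell markers summed to 48.3 to 58.0, 147 to 184, 207 to 252 and 168 to 282 CPM, and 10, 11 and 11 of 11 were called higher. The 10 alveolar macrophage markers summed to 1274 to 1546, 671 to 778, 856 to 1110 and 696 to 723 CPM, and 8, 7 and 7 were called lower and 1, 2 and 3 were not called. The only marker called higher was Marco, at 8 and 11 d, with a mean of 31.2 CPM in unirradiated lung and of 123, 246 and 45.4 CPM at the 3 times. Without Chil3, the largest, the other 9 summed to 792 to 857, 505 to 584, 603 to 781 and 390 to 426 CPM. Car4 had means of 394, 258, 260 and 67.6 CPM, while Ear2 had 188, 69.2, 65.0 and 206 CPM. Which cells expressed these markers was not tested. The 9 mast cell and basophil markers summed to 178 to 198, 51.5 to 59.2, 49.2 to 61.3 and 68.3 to 78.5 CPM, with Tpsab1 at 0 in unirradiated lung, and 4, 5 and 7 of the 8 tested were called higher and 1, Kit, lower at each time. Kit had means of 188, 48.6, 38.9 and 35.0 CPM, and the other 8 markers, which summed higher at each time than without irradiation, were at 2.13 to 2.49, 5.42 to 10.4, 12.2 to 24.6 and 28.6 to 49.8 CPM. Tpsb2, Fcer1a and Mcpt8 passed the filter on low counts through the irradiated groups alone, with at most 0.217 CPM in unirradiated libraries. No support is drawn from the mast cell and basophil calls for that reason. The part of all these cell types in the cytokine changes was not tested. Over all genes tested, 13%, 19.4% and 20% were called higher and 10.6%, 17.8% and 18.9% lower at the 3 times.

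Of 40 other ligands of the interleukin and TNF families, 28 were tested, and 12 were called higher and 1 lower at 8 d, 15 and 2 at 11 d, and 14 and 3 at 14 d. Their median log2 change was 0.66, 0.56 and 0.67. Over all genes tested, 13%, 19.4% and 20% were called higher and 10.6%, 17.8% and 18.9% lower. Ifng, Lta, Tnfsf11, Tnfsf18 and Fasl passed the filter on low counts through the irradiated groups alone, with at most 0.414 CPM in unirradiated libraries. No support is drawn from the counts and medians of these ligands for that reason. Il33, the alarmin of epithelial and stromal cells, rose by 1.15, 1.71 and 0.73 and fell by 0.98 from 11 to 14 d (SE 0.14, edgeR adjusted p = 0.00654). Cd40lg, a ligand of activated T cells, rose by 2.88, 3.44 and 3.36, and Tnfsf8, the CD30 ligand, by 1.93, 2.73 and 3.22. Tnfsf10, which encodes TRAIL, fell at 11 d (−0.83, SE 0.18, 0.00232) and 14 d (−1.38, SE 0.18, 3.26e-05).

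Of 21 signal transducers, 7, 14 and 12 were called higher at 8, 11 and 14 d and none was called lower in the edgeR test against unirradiated lung, with medians of 0.29, 0.63 and 0.61. For all genes tested the shares were 13%, 19.4% and 20% higher and 10.6%, 17.8% and 18.9% lower. Stat4, which relays IL-12 signals, rose by 2.01, 2.76 and 2.30 (SE 0.25 each, adjusted p at most 6.45e-05). Nfkb2 and Relb, the pair of the noncanonical NF-κB pathway, rose by 1.5, 1.72 and 1.47 and by 1.31, 1.53 and 1.17.

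Of 16 feedback inhibitors, 9 were called higher at each time, and 0, 1 and 4 were called lower at 8, 11 and 14 d, with medians of 0.93, 1.10 and 1.06. Across all genes tested, 13%, 19.4% and 20% were called higher and 10.6%, 17.8% and 18.9% lower, so the share called lower at 14 d, 4 of 16, was near the background. Socs3, the inhibitor of gp130 signalling, rose by 1.82, 2.20 and 1.54 (SE 0.20 each, edgeR adjusted p at most 3.16e-05). Nfkbie, an inhibitor of NF-κB, rose by 2.0, 2.39 and 1.94, and Tnfaip3, which encodes the NF-κB brake A20, by 0.85, 1.37 and 1.14. Il18bp, which traps IL-18, rose by 1.25, 2.22 and 2.94 and was higher at 14 d than at 8 d by 1.69 (0.000234). The 4 called lower at 14 d were Cish, Nfkbia, Zfp36 and Dusp1, named after their values were seen. Zfp36, whose protein speeds the decay of Tnf mRNA, fell by 0.71 (SE 0.16, 0.00281), and Dusp1, a MAP kinase phosphatase, by 1.34 (SE 0.23, 0.000279).

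Among 20 tested STAT3 and IL-6 family target genes, 15, 18 and 16 were called higher at 8, 11 and 14 d and none lower, with medians of 2.05, 2.35 and 1.61. The shares over all genes tested were 13%, 19.4% and 20% higher and 10.6%, 17.8% and 18.9% lower. Saa1, Saa2, Orm2 and Fga passed the filter on low counts through the irradiated groups alone, with at most 0.226 CPM in unirradiated libraries. No support is drawn from these counts and medians for that reason. Saa3, an acute phase protein made locally in inflamed tissue, rose by 6.48, 8.52 and 6.31 on the log2 scale, from a mean of 0.573 CPM to 52.1, 214 and 46.1 CPM (SE at most 0.60, edgeR adjusted p at most 5.35e-06). Lcn2, which encodes the iron-binding lipocalin 2, rose by 3.18, 3.91 and 2.86, and Timp1, a metalloproteinase inhibitor, by 3.15, 3.67 and 3.23. Orm1 rose by 3.39, 5.25 and 4.20. Saa3, Lcn2 and Orm1 were called higher at 11 d than at 8 d, by 2.04 (0.0225), 0.72 (0.0429) and 1.87 (0.0136). In all, 6 of the 20 tested target genes were called higher over that step and 14, Timp1 among them, were not called. Of all genes tested, 1.75% were called higher. Over that step edgeR called none of Il6, Lif and Osm. Their log2 changes were negative for Il6 and Lif and positive for Osm. Any link between these ligands and the target genes was not tested.

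Of 22 NF-κB target genes known to be induced by TNF and IL-1, 17 were called higher at 8 d, 20 at 11 d and 13 at 14 d, with 1 lower at 14 d and medians of 1.44, 1.43 and 1.17. The shares over all genes tested were 13%, 19.4% and 20% higher at these times and 18.9% lower at 14 d. Cxcl2 and Ccl20 passed the filter on low counts through the irradiated groups alone, with at most 0.217 CPM in unirradiated libraries. No support is drawn from the counts and medians against unirradiated lung for that reason. Ccl2, the monocyte chemoattractant MCP-1, rose by 5.83, 6.89 and 4.94 and fell by 1.95 from 11 to 14 d (SE 0.28, edgeR adjusted p = 0.00692). Ccl7, a related chemokine, rose by 5.25, 6.36 and 4.28 and fell by 2.08 from 11 to 14 d (SE 0.34, 0.0103). Cd83, a marker of activated antigen-presenting cells, rose by 1.5, 2.02 and 2.05. From 11 to 14 d 5 of the 22 were called lower and none higher, where 0.983% of all genes tested were called lower.

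Genes with the most similar profile were sought by Pearson correlation of log2 CPM over the 12 libraries, restricted to tested genes whose mean reached 5 CPM. The libraries share their groups and depth, so the correlations describe group profiles. For Il6 they were Ces2e (r = 0.967), Ccnd1 (0.959) and the chemokine gene Cxcl1 (0.945), and for Lif Msh6 (0.983), Mdm2 (0.980) and Eda2r (0.976). Tnf was closest to Clec4e (0.967), Irg1 (0.956) and Ldha (0.951), and Il1rn to Clec4e (0.951), Utp6 (0.951) and Slc7a11 (0.929). Il12b was closest to AA467197 (0.995), Ifi205 (0.991) and Rgs1 (0.991), and Osm to Malt1 (0.980), Uck2 (0.978) and Gm5523 (0.975). Il1a was closest to B430306N03Rik (0.975), Mpp1 (0.967) and Fabp5 (0.962), while for Csf2 the highest values were 0.880 (Tomm6), 0.852 (Dnajc24) and 0.843 (Timm22). Among the 8 genes tested the highest correlations were Il12b with Osm (0.945), Tnf with Il1rn (0.937) and Tnf with Il12b (0.883), Il6 with Lif reached 0.871, and Il6 with Il1a was 0.143.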

How the data were processed

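Counts per gene symbol, as deposited for 12 bulk lung libraries (23282 lines per file), were the only values used. TopHat alignment to mm10 is recorded in the submitters' processing notes, and Trizol extraction with NEBNext Ultra II Directional libraries in the labels' protocols. Not given in the sources used here were the TopHat version, the counting program, its annotation and its strand setting. The 79 lines of 35 symbols were summed, which left 23238 symbols. filterByExpr of edgeR (minimum 10 counts, about 0.424 CPM) kept 16484 of them and removed 6754.

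A single quasi-likelihood model (edgeR 4.0.16, R 4.3.3, TMM scaling) held all 12 libraries in 4 groups, with Benjamini-Hochberg adjustment over all genes tested. Each SE was taken as the absolute log2 change over the square root of its F statistic. Alternatives were DESeq2 1.42.0, limma 3.58.1 (voom), other scalings and filters, a fit of only the groups compared, removal of Rn45s and haemoglobin genes before scaling, a replicate block and leaving out each library. The test was checked on simulated data. The log2 ratio of Il1rn to Il1a used a pseudocount of 0.5.

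The genes described, the gene lists and the cell type markers were chosen with earlier results of these data known. Some genes, among them Socs3, Il1r2, Tnfaip3 and Nfkb2, stand in several lists, so the counts of the lists are not independent. From each list at most the 4 genes with the lowest p for any difference among the groups are named, plus every receptor chain of the 10 genes. Genes beyond that rule (Il12a, Il23a, Il1b, Cish, Nfkbia, Zfp36, Dusp1 and, among the markers, Lyz2, Mertk, Marco, Col1a1, Mpo and Tpsab1) were named after their values were seen. The same holds for Saa1, Saa2, Orm2, Fga, Ifng, Lta, Tnfsf11, Tnfsf18, Fasl, Cxcl2, Ccl20, Il27, Capn1, Capn2, Fcer1a, Mcpt8 and Chil3. A gene that this rule selects is not reported here. Coordinates come from GENCODE M21 and promoters from RefSeq GRCm38.p6, of which the 250 bases before each start were searched.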

Additional observations from a re-analysis of the deposited data

Results flagged for a closer look

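Differences between irradiated groups were called by edgeR for 9 contrasts of single genes, each a test of the difference between 2 times. From 8 to 11 d the log2 changes were 1.29 for Tnf (adjusted p = 0.0429), 1.16 for Il12b (0.0292), 1.02 for Il1a (0.0177) and 1.23 for Il1rn (0.0112). From 11 to 14 d Tnf changed by −1.67 (0.0168) and Il1rn by −1.18 (0.0127). From 8 to 14 d Il6 changed by −2.67 (0.000965), Il1a by 0.97 (0.00339) and Lif by −0.78 (0.0233). No library was tested as an outlier. Of these, the 2 contrasts of Il6 and Il1a from 8 to 14 d kept their call whichever library was left out. No cause was tested for any of them.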

How the results depend on the processing

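Leaving out each library in turn gave 5 to 6 called genes at 8 d, 7 to 8 at 11 d and at 14 d against unirradiated lung, 0 to 4 from 8 to 11 d, 0 to 2 from 11 to 14 d and 2 to 4 from 8 to 14 d, where Il10 entered the test in some smaller groups. Calls over all genes then ranged from 2 to 545 (8 to 11 d) and 13 to 681 (11 to 14 d), each fit having fewer samples. Of 432 single-gene values under the other settings, 426 kept their direction and side of the threshold. With scaling by library size alone the Il1rn change from 8 to 14 d turned to −0.0131. On leaving out a library, uncalled values crossed 0: Csf2 ran from −0.31 to 0.55 (8 d), −0.10 to 0.13 (14 d), −0.0405 to 0.81 (8 to 11 d) and −0.52 to 0.33 (8 to 14 d), Il1rn from −0.10 to 0.18 (8 to 14 d), and from 11 to 14 d Il1a ran from −0.17 to 0.0832 and Lif from −0.15 to 0.0504. The cause was not tested.

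The replicate block kept the counts of called genes at 6, 7 and 7 against unirradiated lung and at 4, 2 and 3 between times. Same-numbered libraries correlated at −0.44 to 0.36 in their deviations from the group means, with 6 of 18 pairs over 0.1. For unirradiated and 8 d lung all 3 same-numbered pairs were over 0.1 (0.13 to 0.18) and all 6 other pairs were negative, and in no other pair of groups were all 3 over 0.1. The labels do not say what a number marks, and no call changed with the block. Depth limits Il10 and Csf3, with at most 11 counts per library, and the 4 control counts of Il6 limit its fold change.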
